A study of Mus musculus with 19 samples.

Results

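The 10 genes described here are used as identity markers of resident Kupffer cells, the macrophages that live in the sinusoids of the liver. They were chosen by name as known markers of the cell type, with earlier results of these data already known: Clec4f, Timd4, Vsig4, Marco, Cd5l, Cd163, Folr2, Id3, Adgre1 and Csf1r. The liver RNA-seq files held 35498 genes in all, of which 13594 had enough reads to be tested, all 10 markers among them. The libraries came from livers of male C57Bl/J6 mice, placed by the labels at 24 weeks. The treatment labels gave 4 groups: WSD+beta-Glucan (n = 4 libraries), WSD (n = 5), CTRL+beta-Glucan (n = 5) and CTRL (n = 5). All shared strain, sex, tissue and the 24 weeks, and the labels named no genetic change. WSD is not spelled out in the labels, and the series title speaks of oat beta-glucan in the diet, the microbiota and fatty liver disease. Whether every library is from its own mouse is not in the labels, and the p-values then reflect spread among libraries that may be technical.

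Kupffer cells are seeded before birth, renew themselves in the liver and take up bacteria, dying cells, spent red cells and lipoproteins from the portal blood. Their identity genes are switched on by signals from neighbouring endothelial, stellate and hepatocyte cells. Macrophages that arrive later from blood monocytes can acquire many of these genes with time, while Timd4 is known as a late or rarely acquired marker. In whole liver RNA, a change in the number of cells of a type and a change in RNA per cell cannot be told apart.

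The libraries held 17253823 to 23450232 estimated reads each. The members were covered unevenly, from 7 reads of Cd163 in WSD replicate 1 (exact Poisson 95% interval 2.81 to 14.4, counting error only) to 8729 reads of Cd5l in a WSD library. Hepatocyte markers summed to between 52896 and 160225 CPM (reads of a gene scaled to a common library total) in every library, as the tissue label says. The 3 libraries with the lowest numbers in their titles are CTRL+beta-Glucan replicates 1 and 2 and the first WSD+beta-Glucan library (replicate 1), all from beta-glucan groups. The meaning of these numbers is not given. The edgeR fits were repeated without these 3 libraries, and changes of sign or call are given. The comparison with general macrophage genes below was not refitted without all 3, only without each library in turn.

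Promoter sequence is shown for 2 pairs of members that were each other's most alike gene within groups, Clec4f with Folr2 and Cd163 with Timd4, picked after their values were seen. The windows run from 250 bases before to 50 bases after the RefSeq transcription start (build GRCm38.p6), 5′ to 3′ on the gene's strand, with capitals for the MAF-type motif TGCTGA or its reverse complement TCAGCA.
Clec4f, chr6:83656067-83656366, minus strand: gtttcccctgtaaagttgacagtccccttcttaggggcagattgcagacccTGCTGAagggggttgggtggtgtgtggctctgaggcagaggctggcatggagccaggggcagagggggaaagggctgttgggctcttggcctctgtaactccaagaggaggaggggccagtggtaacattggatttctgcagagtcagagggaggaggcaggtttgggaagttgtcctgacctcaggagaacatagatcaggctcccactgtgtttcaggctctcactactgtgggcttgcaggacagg
Folr2, chr7:101845282-101845581, minus strand: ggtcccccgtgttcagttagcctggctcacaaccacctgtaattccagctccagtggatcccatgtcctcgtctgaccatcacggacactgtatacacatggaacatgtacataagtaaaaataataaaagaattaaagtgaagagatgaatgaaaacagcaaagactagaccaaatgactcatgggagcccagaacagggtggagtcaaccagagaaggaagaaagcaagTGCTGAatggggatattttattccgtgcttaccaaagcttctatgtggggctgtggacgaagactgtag
Cd163, chr6:124304401-124304700, plus strand: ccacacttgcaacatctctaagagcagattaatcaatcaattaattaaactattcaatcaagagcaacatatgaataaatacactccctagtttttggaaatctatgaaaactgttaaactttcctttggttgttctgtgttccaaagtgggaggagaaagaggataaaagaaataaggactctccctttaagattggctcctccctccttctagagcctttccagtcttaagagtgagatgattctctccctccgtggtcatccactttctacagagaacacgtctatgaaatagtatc
Timd4, chr11:46810549-46810848, plus strand: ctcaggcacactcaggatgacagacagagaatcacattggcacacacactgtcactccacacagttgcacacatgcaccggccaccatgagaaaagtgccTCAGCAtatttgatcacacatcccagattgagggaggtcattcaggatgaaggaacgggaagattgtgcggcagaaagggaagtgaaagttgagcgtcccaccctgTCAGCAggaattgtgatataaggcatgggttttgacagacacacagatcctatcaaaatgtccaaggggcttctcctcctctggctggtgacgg
The Folr2 window is the more downstream of its pair of listed starts and spans the start of its most abundant transcript. MAF is a transcription factor of tissue macrophages. The motif TGCTGA was found on either strand in 6 of the 9 windows listed for 8 members, and in 19.48% of all 32851 windows. Both Folr2 windows held it, as did those of Clec4f, Cd5l, Timd4 and Vsig4. Those of Cd163, Marco and Id3 did not. GAGGAAGT, a PU.1-type motif, was in 0 of the 9 and 3.2% of all windows, GGCGCC, a SMAD-type motif, in 0 of the 9 and 11.87%, and the E-box CACGTG in 0 of the 9 and 7.15%. A DR4 element, the type bound by LXR and RXR, was in 0 of the 9 and 0.02% of all windows. No motif searched overlapped another in the windows shown. These matches describe the letters of short windows, and distal enhancers were not searched.

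Per length of transcript, Cd5l and Clec4f were the most abundant members in both WSD groups, and Id3 in both CTRL groups. Cd5l encodes a secreted protein of tissue macrophages also known as AIM. It averaged 99.5 ± 16.9 TPM (a level scaled by transcript length and library total) in WSD+beta-Glucan (SD, n = 4), 221 ± 42.0 TPM in WSD (SD, n = 5), 21.0 ± 8.84 TPM in CTRL+beta-Glucan (SD, n = 5) and 18.9 ± 7.03 TPM in CTRL (SD, n = 5). Clec4f, a C-type lectin restricted to Kupffer cells in mice, averaged 81.1 ± 28.2 TPM in WSD+beta-Glucan, 118 ± 26.0 TPM in WSD, 36.5 ± 16.3 TPM in CTRL+beta-Glucan and 30.1 ± 11.1 TPM in CTRL. At the low end stood Timd4, at 2.03 ± 1.09 TPM in WSD+beta-Glucan, 1.23 ± 0.788 TPM in WSD, 1.29 ± 0.544 TPM in CTRL+beta-Glucan and 1.14 ± 0.445 TPM in CTRL. In WSD the order was Cd5l, Clec4f, Id3, Csf1r, Vsig4, Folr2, Adgre1, Marco, Timd4 and Cd163. Of these neighbours, Cd5l and Clec4f, Id3 and Csf1r, and Folr2 and Adgre1 stood apart in WSD, while the libraries of all other neighbours overlapped. In CTRL the order was Id3, Clec4f, Cd5l, Vsig4, Csf1r, Folr2, Marco, Cd163, Adgre1 and Timd4, and all neighbours overlapped. Cd163 was thus the least abundant member in WSD, at 0.462 ± 0.580 TPM, and the eighth of 10 in CTRL, at 2.54 ± 1.54 TPM.

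In WSD against CTRL, which asks what WSD did without beta-glucan, the members did not move as a block. With edgeR, 6 of the 10 rose (Clec4f, Vsig4, Cd5l, Folr2, Adgre1 and Csf1r), Cd163 fell, and Timd4, Marco and Id3 did not pass the threshold, an adjusted p under 0.05 over all genes tested. Of all genes tested, 26.0% were higher and 27.1% lower by the same rule (53.0% in either direction). The split of all calls depended on the scaling, with 3528 higher and 3680 lower under TMM scaling and 7874 higher and 617 lower with library size alone, which moved the median of all genes by 0.47 on the log2 scale. For the 6 members that rose, every WSD library lay above every CTRL library, which held for 20.0% of all genes tested, while 18.4% lay wholly lower (38.4% in either direction). The median log2 fold change was 1.69 over the 10 members, -0.04 over all genes and 3.01 over 12 general macrophage genes, all 12 of which rose.

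**Figure D1:**
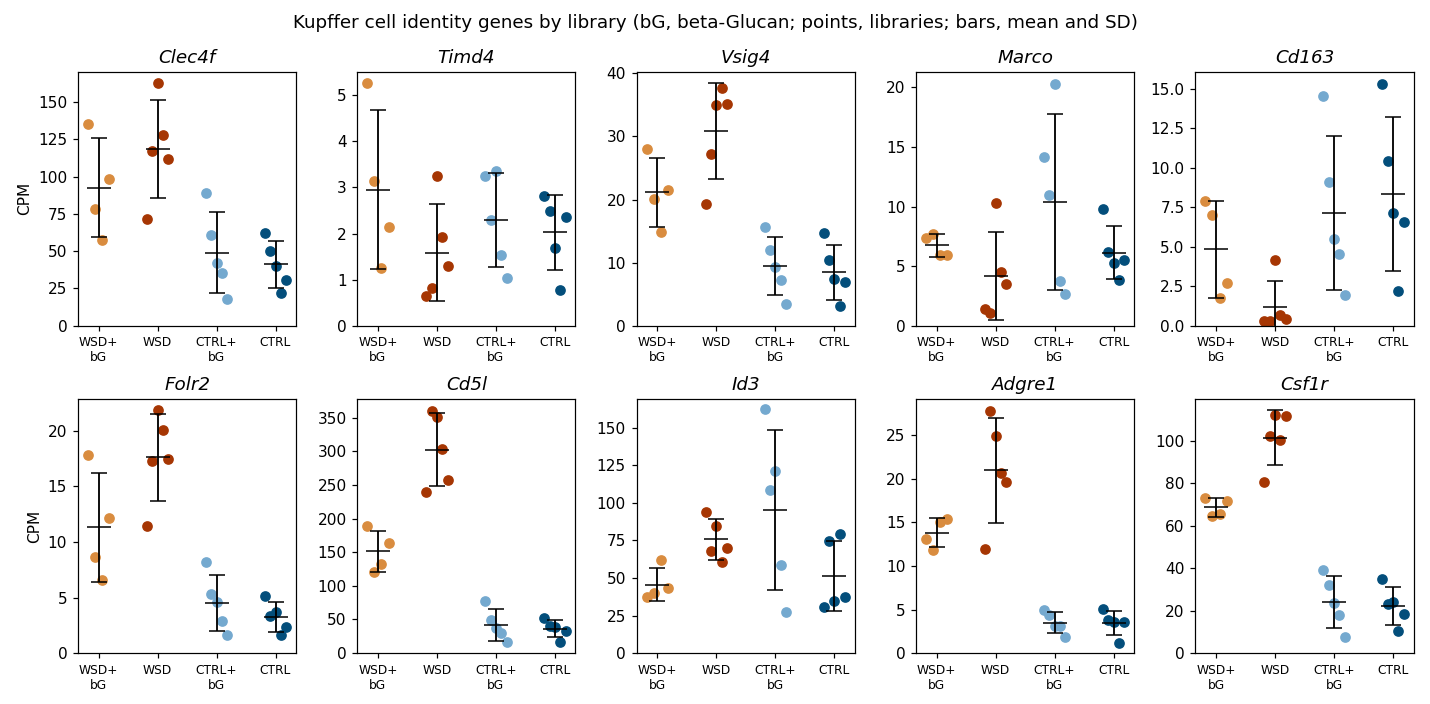
Level of each member in every library, in CPM on linear axes from 0, with a panel per gene. Points are libraries and bars are the mean and SD (bars that would pass below 0 end at the axis). In Cd5l and Csf1r the WSD libraries sit above all others, and in Cd163 4 of the 5 WSD libraries sit below 0.70 CPM while replicate 3 is at 4.15 CPM.

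Among the receptors, Clec4f was at 71.9, 117, 163, 128 and 112 CPM in the WSD libraries, against 62.1, 50.3, 39.9, 22.1 and 30.9 CPM in the CTRL libraries. The groups did not overlap, although WSD replicate 1 was close to CTRL replicate 1, and the log2 fold change was 1.53 ± 0.38 (SE, edgeR adjusted p = 0.00265), a fold of 2.88. Vsig4 (ENSMUSG00000044206), the complement receptor CRIg that captures C3-coated particles from blood, ranged from 19.3 to 37.7 CPM in WSD, against 3.08 to 14.7 CPM in CTRL. Its log2 fold change was 1.86 ± 0.37 (edgeR adjusted p = 0.000435). Folr2, the folate receptor beta, ranged from 11.4 to 21.8 CPM in WSD, against 1.66 to 5.12 CPM in CTRL, with a log2 fold change of 2.44 ± 0.37 (edgeR adjusted p = 3.44e-05). Clec4f (ENSMUSG00000014542) and Folr2 (ENSMUSG00000032725) had the promoters printed above with a MAF-type motif each.

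Cd5l (ENSMUSG00000015854) had the highest fold change of the members. It was at 239.8, 360.4, 352, 304 and 258 CPM in the WSD libraries, against 52.4, 39.5, 39.3, 16.7 and 33.2 CPM in the CTRL libraries. Even the lowest WSD library held several times the highest CTRL library, and the log2 fold change was 3.06 ± 0.35 (edgeR adjusted p = 1.61e-06), a fold of 8.36. Adgre1 (ENSMUSG00000004730), which encodes the macrophage antigen F4/80, ranged from 11.9 to 27.8 CPM in WSD, against 1.12 to 5.06 CPM in CTRL, with a log2 fold change of 2.60 ± 0.29 (edgeR adjusted p = 9.49e-07). Csf1r (ENSMUSG00000024621), the receptor for CSF1 and IL-34 on which macrophages depend, was at 80.4, 102, 112, 101 and 111 CPM in the WSD libraries, against 35.0, 23.2, 24.0, 10.4 and 18.5 CPM in the CTRL libraries. The groups were well apart, and the log2 fold change was 2.19 ± 0.33 (edgeR adjusted p = 3.53e-05). Adgre1 and Csf1r are expressed by macrophages of any origin, so they mark the class rather than residency.

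Cd163 (ENSMUSG00000008845), the receptor that clears haemoglobin bound to haptoglobin, went the other way. It was at 0.323, 0.330, 4.15, 0.687 and 0.407 CPM in the WSD libraries, against 15.3, 10.4, 7.17, 2.19 and 6.59 CPM in the CTRL libraries. Replicate 3 of WSD lay within the CTRL range and the other 4 WSD libraries lay below it. The log2 fold change was -2.81 ± 0.76 (edgeR adjusted p = 0.00504), and -4.24 without WSD replicate 3 (adjusted p = 0.000191). Leaving out 1 library at a time gave -4.24 to -2.48.

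Timd4 (ENSMUSG00000055546), a phosphatidylserine receptor for apoptotic cells, was at 0.645, 0.826, 3.24, 1.92 and 1.30 CPM in WSD, against 2.81, 2.50, 1.69, 0.769 and 2.37 CPM in CTRL. WSD replicate 3 again was the highest of its group, and the log2 fold change was -0.35 ± 0.46 (edgeR adjusted p = 0.542), or 0.09 with library size scaling and -0.79 without WSD replicate 3. Leaving out 1 library at a time gave -0.79 to -0.16. Marco (ENSMUSG00000026390), a scavenger receptor for bacteria, was at 1.43, 1.07, 10.3, 4.53 and 3.54 CPM in WSD, against 9.79, 6.22, 5.25, 3.84 and 5.51 CPM in CTRL. Replicate 3 of WSD held the highest value of both groups and replicates 1 and 2 the lowest, and the log2 fold change was -0.55 ± 0.57 (edgeR adjusted p = 0.432), or -1.21 without replicate 3. With 1 library left out at a time the Marco value ran from -1.21 to -0.30. Id3 (ENSMUSG00000007872), an inhibitor of basic helix-loop-helix factors needed for Kupffer cell development and also made by other liver cells, was at 94.2, 68.2, 85.0, 60.9 and 70.1 CPM in WSD, against 30.8, 74.8, 34.9, 79.3 and 37.3 CPM in CTRL. The 2 highest CTRL libraries lay inside the WSD range, and the log2 fold change was 0.56 ± 0.38 (edgeR adjusted p = 0.226). Id3 passed the threshold only with library size scaling, at 1.02 (adjusted p = 0.0293).

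**Figure D2:**
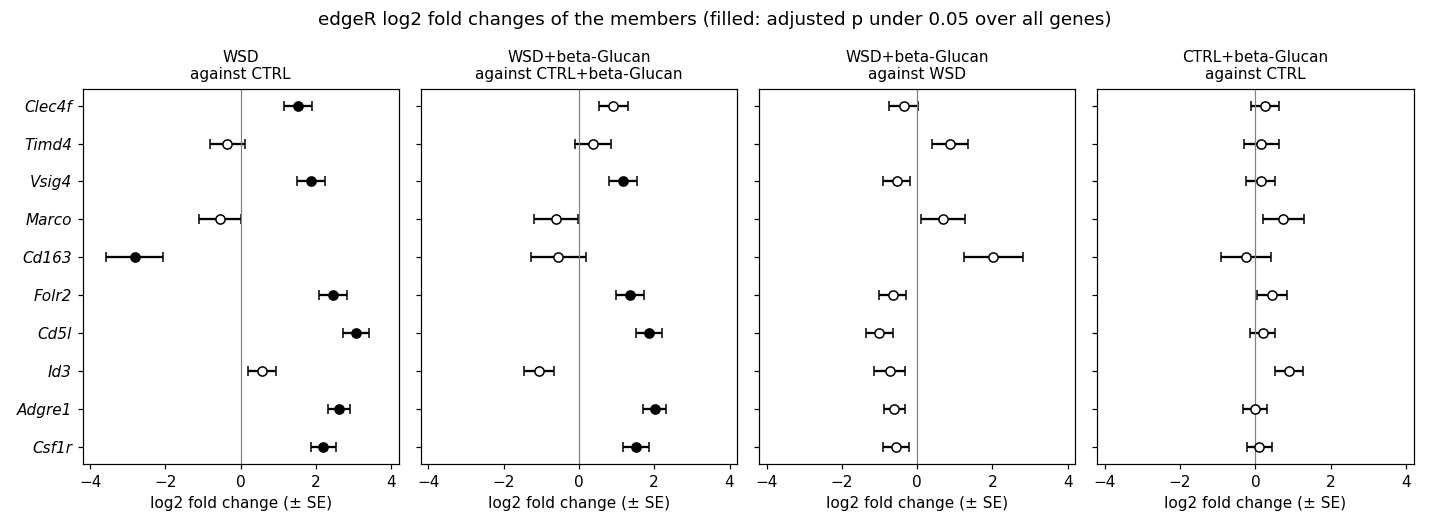
Log2 fold change (edgeR, ± SE, horizontal axis) of each member in 4 comparisons, with filled points for an adjusted p under 0.05 over all genes. In WSD against CTRL 6 points are filled to the right and Cd163 to the left at -2.81, in WSD+beta-Glucan against CTRL+beta-Glucan 5 are filled to the right, and both beta-glucan comparisons have 0 filled points.

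In WSD+beta-Glucan against WSD, which asks what beta-glucan did on top of WSD, 0 of the 10 members passed the edgeR threshold, and 0.390% of all genes did (12 higher, or 0.0883%, and 41 lower, or 0.302%). That count ran from 2 to 184 when a library was left out, and was 436 with DESeq2 and 406 with limma-voom. By DESeq2 and limma-voom 0 members passed as well, and 3 had an unadjusted edgeR p under 0.05, as had 2118 of all 13594 genes tested. The 6 members that were higher in WSD all had negative estimates here, from -0.36 for Clec4f to -1.002 for Cd5l, and Timd4, Marco and Cd163 had positive ones. Both comparisons use the same WSD libraries, so these opposite signs are not independent of each other. The members' median log2 fold change was -0.56, that of the 12 general macrophage genes -0.81 and that of all genes 0.01. Of those 12, 0 passed with edgeR (11 at an unadjusted p under 0.05), 5 were lower with DESeq2 and 6 with limma-voom.

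Cd5l was at 189, 121, 132 and 163 CPM in the WSD+beta-Glucan libraries, all below the lowest WSD library at 239.8 CPM. Its log2 fold change was -1.002 ± 0.35 (edgeR adjusted p = 0.184). Csf1r was at 73.1, 64.5, 65.3 and 71.7 CPM in WSD+beta-Glucan, also below the lowest WSD library at 80.4 CPM, with a log2 fold change of -0.56 ± 0.34 (edgeR adjusted p = 0.430). These were the 2 members whose libraries did not overlap, and 4.83% of all genes tested lay wholly lower and 2.59% wholly higher (7.42% in either direction). When only the WSD+beta-Glucan and WSD libraries entered the fit, Cd5l (-1.01, adjusted p = 0.00510), Csf1r (-0.57, adjusted p = 0.00835) and Id3 (-0.74, adjusted p = 0.0410) passed as lower. With a term for the 3 libraries with the lowest title numbers Cd5l alone did (-1.23, adjusted p = 0.0429), while with those libraries left out 0 members passed. Adgre1, at 11.8 to 15.4 CPM in WSD+beta-Glucan and 11.9 to 27.8 CPM in WSD, had a log2 fold change of -0.60 ± 0.28 (edgeR adjusted p = 0.309).

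Cd163 was at 7.90, 7.05, 1.73 and 2.74 CPM in the WSD+beta-Glucan libraries, each above the 4 low WSD libraries. Replicate 3 of WSD lay among them, and the log2 fold change was 2.03 ± 0.79 (edgeR adjusted p = 0.233), or 3.45 without that library. Over all libraries left out in turn the value ran from 1.70 to 3.45. Timd4 was at 5.27, 3.14, 1.25 and 2.15 CPM in WSD+beta-Glucan, with replicate 1 the highest of all 19 libraries, and had a log2 fold change of 0.88 ± 0.47 (edgeR adjusted p = 0.376), or 0.46 without that replicate. Marco was at 7.35, 7.73, 5.93 and 5.94 CPM in WSD+beta-Glucan, a narrow range inside the wide range of WSD. Its log2 fold change was 0.69 ± 0.59 (edgeR adjusted p = 0.598), or 1.35 without WSD replicate 3 and 0.44 at the lowest with 1 library left out. Clec4f was at 135, 78.4, 57.3 and 98.7 CPM in WSD+beta-Glucan, overlapping WSD, with -0.36 ± 0.39 on the log2 scale (edgeR adjusted p = 0.691). Vsig4 (-0.55 ± 0.37), Folr2 (-0.64 ± 0.36) and Id3 (-0.73 ± 0.40) also overlapped WSD and did not pass. Id3 was at 37.0, 40.0, 62.0 and 43.3 CPM in WSD+beta-Glucan, and replicate 3 alone exceeded the lowest WSD library.

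In WSD+beta-Glucan against CTRL+beta-Glucan, the effect of WSD where both groups had beta-glucan, 5 of the 10 members rose and 0 fell with edgeR. The background was 19.1% of all genes higher and 15.2% lower (34.3% in either direction). Cd5l rose by 1.86 ± 0.35 on the log2 scale (edgeR adjusted p = 0.000589), with 121 to 189 CPM in WSD+beta-Glucan and 16.4 to 77.3 CPM in CTRL+beta-Glucan. Adgre1 rose by 2.01 ± 0.31 (edgeR adjusted p = 8.03e-05), Csf1r by 1.52 ± 0.34 (edgeR adjusted p = 0.00253), Folr2 by 1.35 ± 0.38 (edgeR adjusted p = 0.0110) and Vsig4 by 1.17 ± 0.38 (edgeR adjusted p = 0.0253). In Cd5l, Adgre1 and Csf1r the libraries of the groups did not overlap, with every WSD+beta-Glucan library higher, as in 14.4% of all genes tested (25.2% lay apart in either direction). Without WSD+beta-Glucan replicate 1 the count of members was 3, since Folr2 (1.04, adjusted p = 0.0548) and Vsig4 (0.9988, adjusted p = 0.0832) no longer passed. Vsig4 was also lost without CTRL+beta-Glucan replicate 4 (1.09, adjusted p = 0.0540) and with no filter on low counts (1.16, adjusted p = 0.0572).

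Clec4f had a log2 fold change of 0.92 ± 0.39 there (edgeR adjusted p = 0.0775), and passed without CTRL+beta-Glucan replicate 1 (1.25, adjusted p = 0.0202) and without the 3 libraries with the lowest title numbers (1.30, adjusted p = 0.0298). It did not pass in 25 of 29 alternatives, and over all of them its estimate ran from 0.66 to 1.30. Id3 was at 37.0 to 62.0 CPM in WSD+beta-Glucan and at 162, 109, 121, 58.5 and 27.1 CPM in CTRL+beta-Glucan, which overlapped. Its log2 fold change was -1.06 ± 0.41 (edgeR adjusted p = 0.0531), and it passed as lower with DESeq2 (adjusted p = 0.0309). It also passed without CTRL+beta-Glucan replicate 4 (-1.20, adjusted p = 0.0385), replicate 5 (-1.30, adjusted p = 0.00712) and, barely, without CTRL replicate 4 (-1.06, adjusted p = 0.04997). In the other 25 of 29 alternatives Id3 did not pass, and over all of them its estimate ran from -1.30 to -0.51. Cd163 (-0.55 ± 0.72), Marco (-0.61 ± 0.58) and Timd4 (0.37 ± 0.47) did not pass. The difference of both WSD effects on Cd163 was tested and had a log2 value of 2.27 ± 1.03 (edgeR adjusted p = 0.349), or 3.70 without WSD replicate 3 (adjusted p = 0.188). Leaving out 1 library at a time gave 1.92 to 3.70.

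In CTRL+beta-Glucan against CTRL, 0 members passed with edgeR, DESeq2 or limma-voom, and 0.00736% of all genes (1 gene) did with edgeR. The lowest unadjusted p among the members was that of Id3, whose log2 fold change was 0.89 ± 0.38 (unadjusted p = 0.0313, edgeR adjusted p = 0.855). In every member the libraries of both groups overlapped, as in all but 0.486% of the genes tested. Marco reached 14.1, 10.985 and 20.3 CPM in CTRL+beta-Glucan replicates 1 to 3 and 3.76 and 2.67 CPM in replicates 4 and 5, against 3.84 to 9.79 CPM in CTRL (log2 fold change 0.75 ± 0.56, edgeR adjusted p = 0.871). The remaining members lay between -0.24 ± 0.67 (Cd163) and 0.45 ± 0.39 (Folr2). Without the 3 libraries with the lowest title numbers, or with a term for them, Clec4f, Timd4, Vsig4, Cd5l, Folr2 and Csf1r turned negative (without them -0.37 for Clec4f, -0.44 for Csf1r and -0.11 for Folr2). The difference between both beta-glucan effects passed in 0 members with edgeR, DESeq2 or limma-voom, against 0.00736% of all genes with edgeR. An unadjusted edgeR p under 0.05 was found for 1865 of all 13594 genes tested and for 3 members. These were Id3 (-1.62 ± 0.56, edgeR adjusted p = 0.258), Cd5l (-1.20 ± 0.48, edgeR adjusted p = 0.299) and Cd163.

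Since general macrophage genes had a higher median change than the members, each member was also set against them within the library, as its log2 CPM minus the mean log2 CPM of 12 genes (Cd68, Lyz2, Mpeg1, Ptprc, Tyrobp, Fcer1g, Laptm5, Ctss, Aif1, Spi1, Cd53 and Lst1). That mean was 4.30 to 4.54 in WSD+beta-Glucan, 5.13 to 5.34 in WSD, 1.40 to 3.04 in CTRL+beta-Glucan and 1.29 to 2.83 in CTRL. The summed level of these genes was 431 to 535 CPM in WSD+beta-Glucan, 799 to 924 CPM in WSD, 49.7 to 159 CPM in CTRL+beta-Glucan and 47.3 to 129 CPM in CTRL. Most of them are shared with other leukocytes. On this relative scale the background was high, with 95.3% of all genes lower and 0.427% higher in WSD against CTRL (95.7% in either direction, limma). Of the 10 members, 7 passed as lower.

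Cd5l had a relative value of 3.01 ± 0.28 in WSD and 2.95 ± 0.14 in CTRL (log2, SD, n = 5 each), a difference of 0.06 ± 0.30 (SE). Adgre1 (-0.42 ± 0.32) and Folr2 (-0.60 ± 0.33) did not pass either, but both passed as lower with Cd68 as the yardstick (-0.92 for Adgre1 and -1.11 for Folr2), and Folr2 did without the robust prior (limma adjusted p = 0.0455). Csf1r (-0.80), Vsig4 (-1.09) and Clec4f (-1.51) were lower in WSD relative to the yardstick by moderate amounts, although each rose in CPM. Id3 (-2.42), Timd4 (-3.50), Marco (-3.99) and Cd163 (-6.24) were lower by the most among the members. The yardstick itself averaged 5.21 in WSD and 2.14 in CTRL, so a gene unchanged in CPM is lower by that rise. In CPM, Id3, Timd4 and Marco did not pass, and the median log2 fold change of all genes was -0.04. Cd163 ranged from -6.45 to -3.07 in WSD and from -0.09 to 1.12 in CTRL, and Timd4 from -5.55 to -3.42 in WSD and from -1.49 to -0.66 in CTRL. With Csf1r itself as the yardstick, 4 members passed as lower (Timd4, Marco, Cd163 and Id3) and Cd5l as higher. With Cd68 as the yardstick 9 passed as lower, and without the robust prior 8. The share of all genes passing was not recorded for these other yardsticks and fits, here or below. These counts of members therefore have no background of their own.

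**Figure D3:**
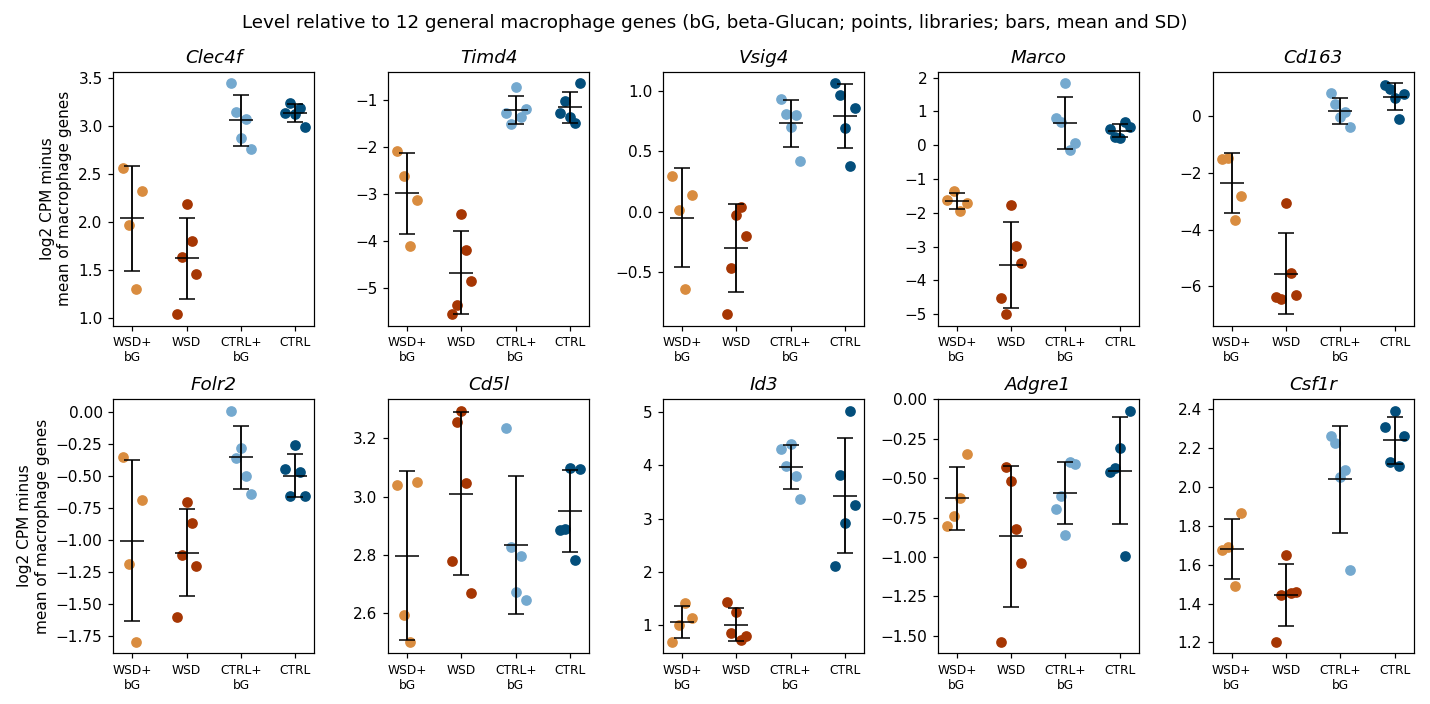
Level of each member relative to 12 general macrophage genes, as log2 CPM minus their mean in the same library (vertical axes, log2, own range per panel). Points are libraries, bars the mean and SD. Cd5l stays near 3 in all groups. Timd4, Marco and Cd163 have their lowest means in WSD, with the WSD+beta-Glucan means between those of WSD and both CTRL groups. In these genes WSD replicate 3 lies within the WSD+beta-Glucan range.

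Timd4, Marco and Cd163 passed in WSD+beta-Glucan against WSD as higher relative to the general macrophage genes (limma), while 49.2% of all genes tested did. Cd163 was at -2.37 ± 1.06 in WSD+beta-Glucan (SD, n = 4) and -5.55 ± 1.43 in WSD (SD, n = 5), a difference of 3.19 ± 0.59 (SE, limma adjusted p = 0.0110). Marco differed by 1.90 ± 0.41 (limma adjusted p = 0.0101) and Timd4 by 1.68 ± 0.40 (limma adjusted p = 0.0101). In each of these genes the groups overlapped through WSD replicate 3, at -3.07 for Cd163, -3.42 for Timd4 and -1.79 for Marco. The lowest WSD+beta-Glucan library, replicate 3, was at -3.67, -4.10 and -1.95. The Timd4 call was lost without WSD+beta-Glucan replicate 2 (1.56, adjusted p = 0.0640) or WSD replicate 1 (1.46, adjusted p = 0.0537), and with Csf1r as the yardstick Cd163 alone passed. The other 7 members lay between -0.21 (Cd5l) and 0.41 (Clec4f) and did not pass. The share of members called was thus below that of all genes. Against CTRL+beta-Glucan, in WSD+beta-Glucan 6 members were lower (Clec4f, Timd4, Vsig4, Marco, Cd163 and Id3), beside 89.7% of all genes (90.2% in either direction). The count ran from 4 to 7 over the alternatives, and with Csf1r as the yardstick Clec4f (-0.66, adjusted p = 0.131) and Vsig4 (-0.42, adjusted p = 0.353) no longer passed. Vsig4 was also lost without WSD+beta-Glucan replicate 3 (-0.58, adjusted p = 0.136). The difference between both beta-glucan effects passed as higher for Timd4, Marco and Cd163, beside 22.1% of all genes higher (22.2% in either direction), and for 0 members without the robust prior. In CTRL+beta-Glucan against CTRL 0 members and 0% of all genes passed. A shared value was subtracted from all genes of a library, so its error is common to all of them, and the limma p-values on this scale are less certain than those of edgeR.

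Within groups, most members were high or low in the same libraries. CTRL+beta-Glucan replicate 5 had the lowest CPM of its group in all 10 members and replicate 1 the highest in 8. CTRL replicate 1 had the highest in 9 and replicate 4 the lowest in 9, WSD replicate 3 the highest in 6 and replicate 1 the lowest in 8, and WSD+beta-Glucan replicate 1 the highest in 7 and replicate 3 the lowest in 6. The mean level of the general macrophage genes had a wide range in both CTRL groups, as given above. Their part in the wide spread of the members was not tested. The libraries numbered replicate 1 in both beta-glucan groups are also among the 3 libraries with the lowest title numbers.

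Likeness was measured as Pearson's r between deviations of log2 CPM from the group means over the 19 libraries, a description that shares library scaling and depth. Clec4f and Folr2 were the most alike pair (r = 0.974), and Vsig4 was close to Clec4f (r = 0.945). Csf1r was close to Cd5l (r = 0.946), and most like the complement genes C1qb (r = 0.979) and C1qc (r = 0.967), made by macrophages, and Nckap1l (r = 0.977), an actin regulator of blood cells. Timd4 was most like Cd163 (r = 0.897), then Cd300e (r = 0.860) and Ciart (r = 0.830), and Marco most like Timd4 (r = 0.824). The genes most like Cd163 after Timd4 were Sds (r = 0.846), a serine dehydratase of hepatocytes, and Fcna (r = 0.840), a ficolin made by Kupffer cells. Adgre1 was most like Ikzf1 (r = 0.928), a leukocyte transcription factor, and Cd5l most like Trpm2 (r = 0.960). Id3 stood apart, with r between 0.07 and 0.41 to the other members, and was most like Zfp703 (r = 0.907), Crtc2 (r = 0.863) and Atoh8 (r = 0.856), a target of BMP signals.

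**Figure D4:**
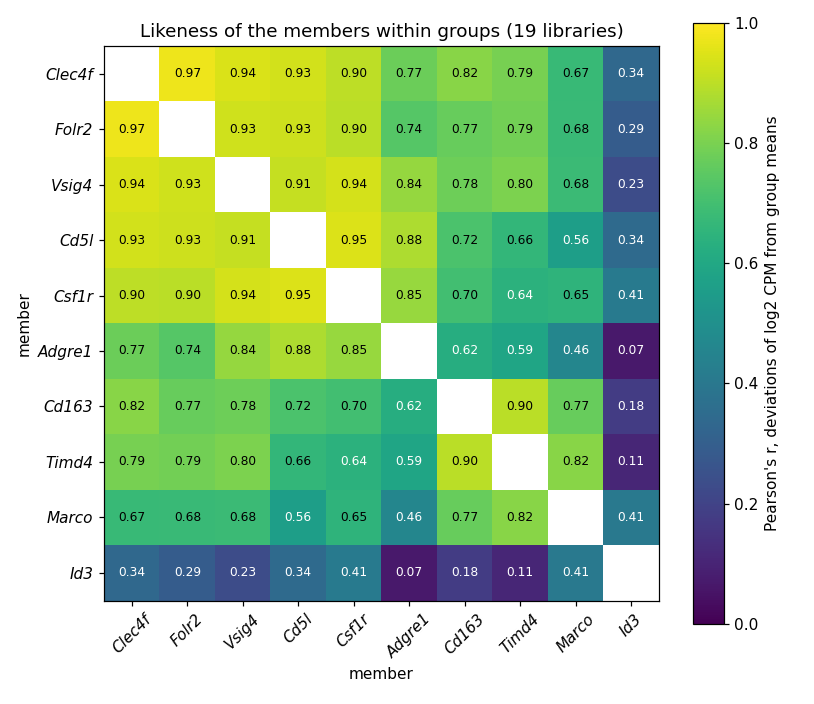
Pearson's r between members (rows and columns), from deviations of log2 CPM from the group means in 19 libraries, with colour running from 0 to 1. Clec4f, Folr2, Vsig4, Cd5l and Csf1r form a block with r of about 0.90 or more, Timd4 is closest to Cd163 (r = 0.897), and Id3 is low with all. Marco and Cd163 (r = 0.767) are less alike than Clec4f and Cd163 (r = 0.824).

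Of 12 further Kupffer cell genes, 8 rose and C6 fell in WSD against CTRL (edgeR), beside 26.0% of all genes higher and 27.1% lower. Their median log2 fold change was 1.30. Il18bp, which binds interleukin-18, rose by 2.35 ± 0.20 (edgeR adjusted p = 2.44e-08), Clec1b, a C-type lectin, by 1.85 ± 0.25 (edgeR adjusted p = 4.78e-06) and Hmox1, the haem-degrading enzyme, by 2.02 ± 0.27 (edgeR adjusted p = 6.77e-06). Fcna, at -0.29 ± 0.38, did not pass (edgeR adjusted p = 0.555), nor did the iron exporter Slc40a1 or Nr1h3, which encodes LXR alpha. Of the 12, 0 passed in WSD+beta-Glucan against WSD with edgeR (4 at an unadjusted p under 0.05, as were 2118 of all 13594 genes tested). With DESeq2 1 was lower and with limma-voom 1, and the median was -0.42.

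Among 12 transcription factors of Kupffer cells, 6 rose and 2 fell in WSD against CTRL, beside 26.0% of all genes higher and 27.1% lower. Spi1, which encodes PU.1, rose by 3.21 ± 0.30 (edgeR adjusted p = 1.09e-07), Irf8 by 2.36 ± 0.24 (edgeR adjusted p = 1.80e-07) and Zeb2 by 1.85 ± 0.19 (edgeR adjusted p = 1.51e-07). Maf rose by 0.59 ± 0.17 (edgeR adjusted p = 0.00612). Rxra, the partner of LXR, and Smad4, the common SMAD, fell by 0.63 ± 0.10 and 0.55 ± 0.11, and both are also expressed in hepatocytes. Beta-glucan on top of WSD moved 0 of the 12 past the edgeR threshold (4 at an unadjusted p under 0.05, as were 2118 of all 13594 genes tested). With DESeq2 2 were lower and with limma-voom 3.

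Both ligands of Csf1r rose in WSD against CTRL, Csf1 by 1.383 ± 0.12 (edgeR adjusted p = 1.52e-08) and Il34 by 1.75 ± 0.34 (edgeR adjusted p = 0.000227). Csf1 had a log2 fold change of -0.51 ± 0.12 in WSD+beta-Glucan against WSD (edgeR adjusted p = 0.0634), and was lower with DESeq2 and limma-voom. Of 17 genes of the BMP and ALK1 pathway, through which endothelial and stellate signals induce Id genes in Kupffer cells, 4 rose and 4 fell in WSD against CTRL, beside 26.0% and 27.1% of all genes. Among those that fell was Smad4, with the value given above. Among those that rose, the receptor gene Acvrl1, which encodes ALK1, rose by 2.31 ± 0.22 (edgeR adjusted p = 6.26e-08) and the ligand gene Gdf2, which encodes BMP9, by 1.04 ± 0.20 (edgeR adjusted p = 0.000237). Of 8 Notch pathway genes 6 rose and 0 fell, among them Dll1 by 0.997 ± 0.21 (edgeR adjusted p = 0.000543) and Hey1 by 2.96 ± 0.39 (edgeR adjusted p = 4.03e-06).

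The functions in which the members act were counted from lists as well, and some genes stand in more than 1 list. For comparison, 26.0% of all genes tested rose and 27.1% fell in WSD against CTRL. Of 12 tested efferocytosis genes 8 rose and 0 fell in WSD against CTRL, with Axl, a receptor for dying cells like Timd4, up by 2.76 ± 0.26 (edgeR adjusted p = 1.29e-07). Of 10 tested scavenger receptors other than Marco, 6 rose and 1 fell, with Msr1 up by 2.39 ± 0.29 (edgeR adjusted p = 2.24e-06). Of 10 genes of complement components and receptors 8 rose and 1 fell, with C3ar1 up by 3.30 ± 0.28 (edgeR adjusted p = 1.38e-08). Of 9 haem and iron recycling genes, the process of Cd163, 3 rose (33.3%, near the share of all genes) and 0 fell, with a median of -0.02. Of 4 tested folate genes 0 rose and 3 fell, with Fpgs, which retains folate in cells, down by 0.58 ± 0.08 (edgeR adjusted p = 5.38e-06), while the folate receptor gene Folr2 rose. With beta-glucan on top of WSD, Itgax in the complement list passed as lower with edgeR and no other gene of these 5 lists did, while 4 complement genes were lower with DESeq2 and 4 with limma-voom. In the other 4 lists, 1 scavenger receptor was lower with DESeq2 and with limma-voom, 1 haem and iron gene was lower with limma-voom, and 1 folate gene was higher with DESeq2.

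Markers of other cells moved with the members and their part in the results was not tested. All 10 recruited monocyte genes rose in WSD against CTRL, summing to 24.3 to 42.3 CPM in WSD+beta-Glucan, 57.8 to 77.0 CPM in WSD, 4.40 to 10.3 CPM in CTRL+beta-Glucan and 6.12 to 8.60 CPM in CTRL. All 8 genes of lipid-associated macrophages rose as well. They summed to 155 to 457 CPM in WSD+beta-Glucan and 470 to 820 CPM in WSD. In CTRL+beta-Glucan they summed to 47.0 to 97.9 CPM and in CTRL to 61.5 to 88.8 CPM. Of the 8, 5 passed as lower in WSD+beta-Glucan against WSD, beside 0.302% of all genes. In WSD against CTRL, 26.0% of all genes tested rose and 27.1% fell. Of 10 sinusoidal endothelial genes 6 rose, and of 9 stellate genes 6. Of 7 tested T and NK cell genes 6 rose and of 6 tested dendritic genes 5, while 0 fell in any of these lists. Hepatocyte genes went down in 6 of 7, with sums of 52896 to 65670 CPM in WSD and 108988 to 146202 CPM in CTRL. B cell, neutrophil, cholangiocyte and serosal lists had 1 riser each, or 20% to 25% of their tested genes, near the share of all genes. For WSD+beta-Glucan against WSD, edgeR calls were found in the lists of lipid-associated macrophages, recruited monocytes and complement. In recruited monocytes and complement the 1 call was Itgax, which stands in both lists. The other 19 lists had 0 calls, while DESeq2 and limma-voom each called 7 recruited monocyte genes lower.

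Most members were read mainly from 1 transcript, although up to 6 were listed for a gene (Csf1r). Timd4 and Cd5l were read from 1 transcript each in the files, and in Vsig4 and Marco more than 99% of reads fell on 1. Clec4f had a second, non-coding transcript with 16.6% of its reads in WSD+beta-Glucan, 18.2% in WSD, 21.2% in CTRL+beta-Glucan and 19.4% in CTRL. Cd163 was split over 3 transcripts, with 29.0% of reads in WSD+beta-Glucan, 40.3% in WSD, 36.6% in CTRL+beta-Glucan and 29.8% in CTRL on a retained-intron form. At the few Cd163 reads of WSD this share ranged from 11.9% to 78.8% between libraries and is uncertain. With coding transcripts alone the log2 fold change of Cd163 in WSD against CTRL was -2.66 (edgeR adjusted p = 0.0107).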

How the data were processed

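Per the labels, polyA-selected stranded libraries (TruSeq Stranded mRNA) were made from liver RNA extracted with a PureLink kit. Per the submitters' processing notes, Salmon 1.10.1, DESeq2 1.38.3 (no role given) and build GRCm39 were used. The transcript set is not given in the sources used here. The authors deposited, per transcript and library, estimated counts (expected counts, not scaled between libraries), TPM, and as another unit lengths in bases, with the effective length used in 1 alternative.

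Of 116546 transcripts, 115977 (99.51%) matched GENCODE M21 (GRCm38) by identifier, which gave symbols and gene IDs. The other 569 were left out (0.0623% to 0.1095% of reads). Deposited estimated counts were summed to 35498 genes and rounded. Genes with low counts were removed (filterByExpr), which left 13594. edgeR 4.0.16 in R 4.3.3 (TMM, robust quasi-likelihood, common dispersion 0.0341) fitted a mean per group over 19 libraries, with Benjamini-Hochberg adjustment over all genes and a threshold of 0.05. The SE is the absolute log2 fold change divided by the square root of F. Relative levels were tested with limma 3.58.1 (trend, robust, prior count 2). DESeq2 1.42.0 and limma-voom were alternatives. The fits were tested on simulated counts in which a small set of genes outside the general macrophage list was changed in WSD alone. This does not cover data with as many changed genes, or as large a change of the general macrophage genes, as here. TPM gave levels between genes, CPM levels between groups. Counting intervals are exact Poisson and cover counting error only, since reads carry no molecular identifiers. Replicates are numbered in order of deposition, and no 2 libraries were identical.

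The members and all 22 other gene lists were chosen with earlier results of these data known. Named from the other lists are genes among the 3 with the smallest p per comparison, and for likeness the 3 genes with the highest r. C6, Fcna, Slc40a1, Nr1h3, Maf and Rxra were named outside this after their values were seen. Promoters are RefSeq (GRCm38.p6). No coordinates are in the authors' files.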

Additional observations from a re-analysis of the deposited data

Results flagged for a closer look

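Cd163 in WSD replicate 3 stood apart from its group, at 4.15 CPM against 0.687 CPM in the nearest WSD library, 1 flag among 40 sets of a member and a group, where chance flags about 1 in 20. The same library had the highest CPM of WSD in 6 members.

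Relative to the general macrophage genes, beta-glucan effects under WSD and under CTRL differed at a limma adjusted p of 0.0486 in Cd163 (3.68 on the log2 scale), Timd4 (1.74) and Marco (1.68), beside 22.1% of all genes tested, so 3 of 10 members is near the background. Of 23 alternatives, the call was lost in 7 for Cd163, 17 for Timd4 and 18 for Marco, and with a prior count of 0.5 or without the robust prior 0 members passed. In Cd163 the relative value averaged -2.37 in WSD+beta-Glucan and -5.55 in WSD, and 0.20 in CTRL+beta-Glucan and 0.69 in CTRL. In absolute CPM the difference between the effects passed in 0 members with edgeR, and in 0 with DESeq2 or limma-voom. With edgeR 3 members had an unadjusted p under 0.05, as had 1865 of all 13594 genes tested.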

How the results depend on the processing

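No paired analysis was possible because the labels carry no replicate numbers. In WSD against CTRL, 6 members higher and 1 lower were called in every alternative, except 7 higher with library size scaling, where Timd4 turned to 0.090. Of all genes, WSD+beta-Glucan against WSD called 53, against 294 with library size, 436 with DESeq2, 406 with limma-voom, 457 with only the groups compared, 35 with the length offset, 14 with coding transcripts, 258 with a term for the 3 libraries with the lowest title numbers, and 2 to 184 with a library left out (2 without WSD+beta-Glucan replicate 1, 2 or 4 or WSD replicate 5, 3 without WSD replicate 1 or 2, 33 without WSD replicate 3, and 85, 97 and 184 without CTRL+beta-Glucan replicate 1, CTRL replicate 1 and CTRL+beta-Glucan replicate 5). Members lower there numbered 3 with only the groups compared, 1 with that term and 0 without those 3 libraries. In CTRL+beta-Glucan against CTRL 1 gene was called, against 0 with library size or only the groups compared, 6 with DESeq2, 5 without those 3 libraries, 2 with their term and 0 to 2 with a library left out. The difference between the effects called 1 gene, against 3 with library size, 139 with DESeq2, 0 with coding transcripts, 2 without the 3 libraries, 2 with their term and 0 to 81 with a library left out. In WSD+beta-Glucan against CTRL+beta-Glucan 1 member was lower with DESeq2, and leaving out libraries gave 3 to 6 members higher and 0 to 1 lower.

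Uncalled values near 0 changed sign. In CTRL+beta-Glucan against CTRL, Adgre1 (-0.01) was 0.0042 without the filter, 0.015 with DESeq2, 0.031 with limma-voom, 0.0082 with only the groups compared and 0.0078 with coding transcripts, and Csf1r was -0.016 with limma-voom. Without the 3 libraries Clec4f was -0.37, Timd4 -0.055, Vsig4 -0.36, Cd5l -0.40, Folr2 -0.11 and Csf1r -0.44, and with their term Clec4f was -0.30, Timd4 -0.19, Vsig4 -0.27, Cd5l -0.28, Folr2 -0.075 and Csf1r -0.28. With a library left out there, Adgre1 ran from -0.23 to 0.17, Clec4f from -0.076 to 0.47, Vsig4 from -0.10 to 0.44, Cd5l from -0.15 to 0.40, Csf1r from -0.14 to 0.34, Timd4 from -0.050 to 0.35 and Cd163 from -0.67 to 0.10, and Timd4 from -0.062 to 0.62 in WSD+beta-Glucan against CTRL+beta-Glucan. The difference for Marco was 0.81 with limma-voom, 0.11 without the 3 libraries, 0.023 with their term and -0.31 to 0.60 with a library left out.

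On the relative scale, with Csf1r as the yardstick 1 member was higher and 4 lower in WSD against CTRL, and 1 higher in WSD+beta-Glucan against WSD. For the alternatives on this scale the share of all genes passing was not recorded. The 3 members higher in the difference became 1 with Cd68 or Csf1r as yardstick, 0 with a prior count of 0.5, 0 without the robust prior (added after seeing the data) and 0 to 3 with a library left out (0 without CTRL+beta-Glucan replicate 2 or 3, WSD replicate 1 or CTRL replicate 3 or 4). Signs turned with Cd68 for Cd5l in WSD against CTRL (-0.45), Clec4f (0.041), Timd4 (0.056), Vsig4 (0.056) and Cd5l (0.0016) in CTRL+beta-Glucan against CTRL, and Folr2 in the difference (0.038). They turned with Csf1r for Folr2 (0.20) and Adgre1 (0.38) in WSD against CTRL, Folr2 (-0.15) and Id3 (-0.19) in WSD+beta-Glucan against WSD, Clec4f (0.12), Timd4 (0.14), Vsig4 (0.14), Cd5l (0.085) and Adgre1 (0.059) in CTRL+beta-Glucan against CTRL, Cd5l (0.32) and Adgre1 (0.32) in WSD+beta-Glucan against CTRL+beta-Glucan, then Vsig4 (-0.12) and Adgre1 (-0.056) in the difference. With a library left out, relative values crossed 0 for Cd5l (-0.011 to 0.15) in WSD against CTRL, Folr2 (-0.12 to 0.35) and Id3 (-0.066 to 0.17) in WSD+beta-Glucan against WSD, Timd4 (-0.18 to 0.066), Marco (-0.077 to 0.41), Clec4f (-0.17 to 0.00022) and Vsig4 (-0.16 to 0.019) in CTRL+beta-Glucan against CTRL, Adgre1 (-0.13 to 0.024) and Cd5l (-0.12 to 0.061) in WSD+beta-Glucan against CTRL+beta-Glucan, then Folr2 (-0.27 to 0.21) and Cd5l (-0.18 to 0.0022) in the difference. The causes were not tested. Depth limits Cd163 and Timd4 most, with 7 and 13 reads in their lowest libraries.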
